A study of Homo sapiens with 38 samples.

Results

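Vorinostat is a hydroxamic acid that inhibits histone deacetylases (HDACs). The comparison set its transcript response after 14 days against its response after 6 h in 5 established human cell lines. They derive from diffuse large B-cell lymphoma, a cancer of mature B cells. For each line the vorinostat effect at 6 h (vorinostat against DMSO, the solvent) was subtracted from the vorinostat effect at 14 days (vorinostat against the solvent set titled DMSOV). The lines OCILY1, PFEIFFER, SUDHL4, TOLEDO and WSUDLCL2 were taken because each had all 4 libraries, which gave 20 of the 38 samples listed, 5 in each of the 4 groups. Every group was a set of unmodified cell lines in their recommended medium, and the groups differed in the agent and in the time. Each is 1 cell line with 1 library for every agent and time, and lines served as replicates. No label gives the dose, a change of medium, or separate cultures for the libraries of a line, and the p-values then measure only the spread between these libraries. Pairing DMSOV with vorinostat rests on the letter V of the title. A second set of 14 day solvent libraries, titled DMSOP, served as an alternative. At 6 h the titles give DMSO only, but the deposited log2 columns are named DMSOP for TOLEDO and PFEIFFER and DMSOV for the other lines. In TOLEDO and PFEIFFER the solvent at 6 h may therefore be of another set than that at 14 days.

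HDACs take acetyl groups off lysines of histones and of many other proteins, and an inhibitor of the class I enzymes raises histone acetylation within hours. The early transcript response of lymphoid cells to such drugs is known to include the cell cycle inhibitor p21 and lower levels of many lineage genes. Cells that live through long exposure can arrest, differentiate or adapt, and bulk RNA reads the mean of whatever cells remain.

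The 20 libraries held 3.19 to 8.36 mega counts, with 3 below 4 mega counts (SUDHL4 in DMSO at 6 h, SUDHL4 and WSUDLCL2 with vorinostat at 14 days). Levels are given in CPM, reads of a gene per mega reads counted, after scaling by the trimmed mean of M-values (TMM), always in the order OCILY1, PFEIFFER, SUDHL4, TOLEDO and WSUDLCL2. For a gene without reads, up to 3 counts remain possible by counting error alone, equal to 0.359 to 0.941 CPM. The B-cell label was met in each line: the summed level of 7 B-lineage markers was 1887 to 9742 CPM. Of 8 T-cell markers 6 are in the table, with a summed level of 490 to 1242 CPM in PFEIFFER and 0.898 to 101 CPM in the other lines. Of 9 epithelial and stromal markers 6 are in the table, at 158.3 to 284.5 CPM in PFEIFFER and 0.726 to 38.7 CPM in the other lines. The source of these transcripts in PFEIFFER was not tested. Changes are log2 values. The time difference is the vorinostat effect at 14 days minus that at 6 h, so a negative value can mean a rise at 6 h that was smaller later, or a fall that came later. Effects at each time were fitted separately, so their difference need not equal the fitted time difference. In bulk samples, fewer cells of a type and less RNA per cell cannot be told apart.

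Vorinostat had an effect at 14 days that differed from its effect at 6 h for a minority of the tested genes, in both directions. The time difference was called at an adjusted p under 0.05 for 2594 of 13822 genes (18.8%), 1277 of them higher (9.24%) and 1317 lower (9.53%), and 1591 of these were at least 2-fold. At 6 h vorinostat itself changed 5067 genes (36.7%; 18.6% higher and 18.1% lower). At 14 days it changed 2805 genes (20.3%; 9.98% higher and 10.3% lower). Of the called time differences 2290 had the same sign in 5 of 5 lines, and the median absolute size was 1.12. Scaling by library totals in place of TMM gave 847 higher and 2198 lower and moved the median time difference of all genes from 0.049 to -0.15, so the balance of higher and lower genes depends on the scaling. The limma fit gave 969 higher and 1519 lower. Without PFEIFFER 1373 genes were called and without TOLEDO 1653. Without both 564 were called. The pairing by line carries the test: with no replicate block for the line, 29 genes were called for the time difference, 516 at 6 h and 0 at 14 days.

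Sorted by what happened at each time, most genes with a called time difference were called at 1 of the times only. Among the 1317 genes with a lower time difference, 603 had risen at 6 h and were not called at 14 days, and 428 were not called at 6 h and had fallen at 14 days. Another 93 had risen at 6 h and fallen at 14 days. Among the 1277 with a higher time difference, 621 had fallen at 6 h and were not called at 14 days, 365 were not called at 6 h and had risen at 14 days, and 43 had fallen first and risen later. A further 23 genes had risen at both times and less at 14 days, and 34 had fallen at both times and less at 14 days. At neither time were 135 of the lower and 203 of the higher genes called. Both effects enter the time difference, so these classes describe it and are no separate evidence.

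**Figure D1:**
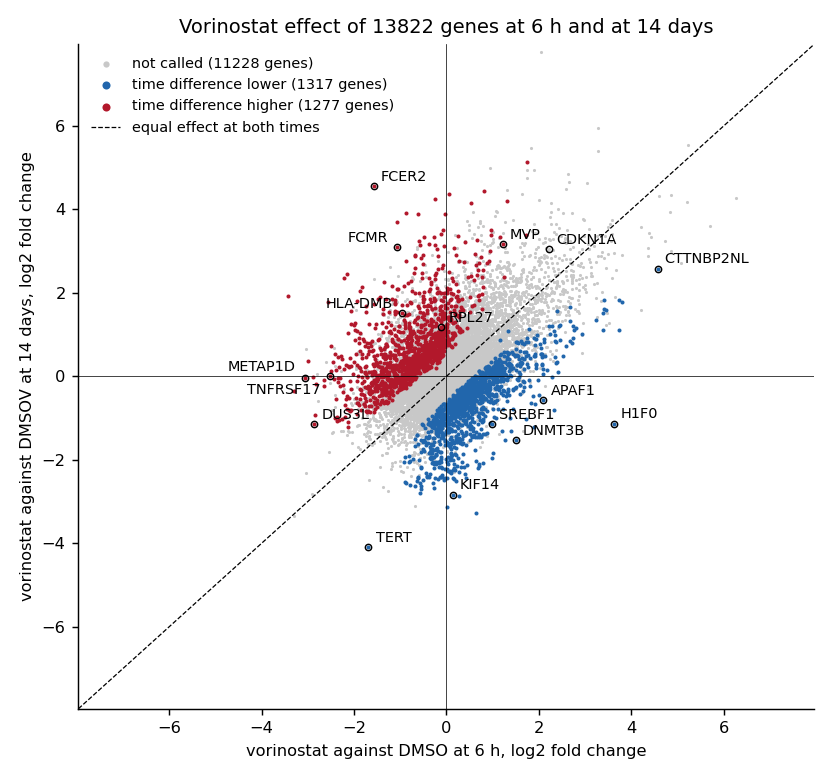
Vorinostat effect of each tested gene at 6 h (x axis) and at 14 days (y axis), both as log2 fold changes against the solvent of that time in 5 lines. Red and blue points are the 1277 genes with a higher and the 1317 genes with a lower time difference, grey points were not called, and the dashed line marks equal effects. METAP1D and TNFRSF17 lie far left near 0 on the y axis, KIF14 lies below the centre, and FCER2 lies at the upper left.

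Genes of mitosis fell at 14 days, with fewer calls at 6 h. Of 35 tested G2/M genes 30 had a lower time difference and none a higher one, with a median of -1.85 against 0.049 over all genes, and all 35 values were negative (9.53% of all genes were called lower). At 6 h the same genes had a median effect of -0.22, with 3 called higher and 6 lower, or 12 lower without PFEIFFER. At 14 days the median was -2.09 and 33 of 35 fell, of which 13 were called without PFEIFFER and 10 without TOLEDO. KIF14, a kinesin of cytokinesis (ENSG00000118193.10, GRCh38 chromosome 1, 200551497 to 200620734), stood at 46.8, 74.1, 23.4, 179 and 26.0 CPM in DMSO at 6 h and 46.4, 87.3, 35.6, 136 and 33.5 CPM with vorinostat. KIF14 at 14 days stood at 79.7, 98.6, 79.6, 212 and 78.3 CPM in DMSOV and 24.2, 10.8, 3.66, 19.4 and 21.4 CPM with vorinostat. At 6 h the treated and solvent libraries overlapped, and at 14 days every treated library was below every DMSOV library. The time difference of KIF14 was -2.96 (SE 0.38, adjusted p = 0.00237). ASPM, a spindle pole protein gene, reached -3.15 (SE 0.48, adjusted p = 0.00509), and NEK2, a centrosome kinase gene, -2.85 (SE 0.55, adjusted p = 0.0107).

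The lines, each with 1 library per group, spanned a wide range in the late mitotic fall. The median time difference of the G2/M genes was -3.90 in SUDHL4, -2.62 in PFEIFFER, -2.05 in TOLEDO, -0.67 in WSUDLCL2 and -0.48 in OCILY1. MKI67, the proliferation marker Ki-67, shows the range. It stood at 558, 468, 453, 1029 and 576 CPM in DMSO at 6 h and 291, 578, 334, 593 and 325 CPM with vorinostat. MKI67 at 14 days stood at 654, 602, 776, 1105 and 899.5 CPM in DMSOV and 324, 92.1, 40.2, 87.7 and 248 CPM with vorinostat. The treated libraries of OCILY1 and WSUDLCL2 held 324 and 248 CPM at 14 days, against 40.2 to 92.1 CPM in the other 3 lines. Its time difference was -2.15 (SE 0.51, adjusted p = 0.0210), and in OCILY1 it was -0.073. The solvent libraries moved as well: the G2/M genes were a median 0.61 higher in DMSOV at 14 days than in DMSO at 6 h, and a median 1.41 lower (-1.41) in the treated libraries of 14 days than in those of 6 h. In WSUDLCL2 the treated libraries went the other way, with a median of 0.29 beside 1.01 in its solvent libraries. Without PFEIFFER 11 of the 35 genes were called, without TOLEDO 12 and without both 2, with each of the 35 values still negative. MKI67 was called neither without PFEIFFER nor without TOLEDO.

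Many promoters of the mitotic genes hold a sequence that the grouping did not use. The cell cycle homology region (CHR) is the element through which MuvB complexes hold G2/M genes down in resting cells and activate them in dividing ones. The letters TTTGAA or TTCGAA, on either strand, were found in 20 of 29 G2/M promoters with a RefSeq entry (69.0%), against 16.4% of all 35116 promoters of the same length and 11.4% of those of tested genes. Across all genes with a lower time difference, 181 of 1081 promoters held these letters (16.7%). The promoter window runs from 250 bases before to 50 bases after the start, on GRCh38.p14. CCAAT, the box bound by NF-Y, was present in 24 of the 29 (82.8%), against 34.6% of all promoters. For all genes with a lower time difference that share was 46.3%. The CHR words do not contain CCAAT, but the ends of both can share a letter. In MKI67 the last A of a TTTGAA also begins ATTGG, which is CCAAT on the opposite strand. A match is a description of letters. The windows of 4 genes, a pair of cell cycle markers and a pair of spindle genes, are shown as examples upstream of the start and outside every GENCODE 29 exon, with the CHR letters in capitals.
MKI67 (chr10:128126424-128126573, minus strand): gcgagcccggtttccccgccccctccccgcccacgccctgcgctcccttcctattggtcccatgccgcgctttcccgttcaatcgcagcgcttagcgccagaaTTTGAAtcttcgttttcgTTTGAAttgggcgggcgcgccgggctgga
KIF11 (chr10:92592980-92593129, plus strand): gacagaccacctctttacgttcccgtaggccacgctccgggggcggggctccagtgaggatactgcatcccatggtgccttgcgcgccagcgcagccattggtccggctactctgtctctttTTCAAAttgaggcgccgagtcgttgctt
ASPM (chr1:197146700-197146819, minus strand): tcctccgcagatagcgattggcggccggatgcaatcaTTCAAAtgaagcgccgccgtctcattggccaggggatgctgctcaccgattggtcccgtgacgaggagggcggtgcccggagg
CDC20 (chr1:43358831-43358950, plus strand): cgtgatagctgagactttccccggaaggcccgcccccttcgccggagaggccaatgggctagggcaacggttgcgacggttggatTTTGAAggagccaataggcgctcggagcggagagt
The CHR begins 29 bases before the start of MKI67 (a second copy lies at 47), 28 before that of KIF11, 113 before that of ASPM and 65 before that of CDC20. KIF11 encodes the kinesin that pushes spindle poles apart, and CDC20 the activator of the anaphase-promoting complex. Their time differences were -2.06 and -1.87, both called over 5 lines.

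Genes of DNA replication and of the repair of broken forks fell late as well, with fewer calls. Of 41 replication and G1/S genes 19 had a lower time difference and none a higher one, with a median of -1.32. At 14 days 30 of the 41 had fallen (6 without PFEIFFER, 5 without TOLEDO, 16 without SUDHL4 and 15 against DMSOP), and at 6 h 12 had fallen and 5 had risen. ORC1, the largest subunit of the origin recognition complex, stood at 56.3, 52.5, 52.6, 54.6 and 81.8 CPM in DMSO at 6 h and 43.1, 60.6, 59.5, 65.4 and 78.0 CPM with vorinostat. ORC1 at 14 days stood at 65.6, 64.7, 74.2, 59.6 and 117 CPM in DMSOV and 28.4, 12.4, 5.48, 11.0 and 52.3 CPM with vorinostat. The groups overlapped at 6 h, and at 14 days the treated libraries, with 5.48 to 52.3 CPM, lay below all DMSOV libraries. ORC1 had a time difference of -2.13 (SE 0.41, adjusted p = 0.00963). MCM10, a replication initiation factor, had -2.55 (SE 0.60, adjusted p = 0.0207) and CDC45, a part of the replicative helicase, -2.20 (SE 0.50, adjusted p = 0.0188). The core helicase genes MCM2, MCM3, MCM5 and MCM7 had time differences of -0.38, -0.66, -0.22 and -0.61, none of them called. In OCILY1 the median of the list was 0.021, against -2.64 in SUDHL4. The count was 5 without PFEIFFER, 7 without TOLEDO and 29 without OCILY1. Neither MCM10 nor CDC45 was called without PFEIFFER or without TOLEDO.

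E2F sites are the elements through which E2F factors time S phase genes. TTTCCCGC, TTTGGCGC or TTTCGCGC on either strand occurred in 18 of 35 replication promoters (51.4%), against 2.74% of all promoters and 4.66% of those of tested genes, while the CHR occurred in 5.71%. Among the G2/M promoters 10.3% held an E2F word, and among those of all genes with a lower time difference 8.05%. No E2F word contains a CHR word or CCAAT. The windows of POLA1, the catalytic subunit of the primase polymerase, and of E2F2, an S phase activator of its own family, are shown with the E2F letters in capitals.
POLA1 (chrX:24693768-24693917, plus strand): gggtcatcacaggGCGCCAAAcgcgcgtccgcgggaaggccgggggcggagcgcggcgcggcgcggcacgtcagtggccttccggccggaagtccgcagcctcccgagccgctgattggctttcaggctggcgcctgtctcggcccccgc
E2F2 (chr1:23531234-23531383, minus strand): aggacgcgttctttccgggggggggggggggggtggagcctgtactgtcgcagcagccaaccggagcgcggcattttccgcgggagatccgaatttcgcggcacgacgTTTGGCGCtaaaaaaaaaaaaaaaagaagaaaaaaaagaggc
POLA1 had a time difference of -1.32 and E2F2 of -1.26, both called over 5 lines.

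Homologous recombination and Fanconi anaemia genes, which repair double-strand breaks and crosslinks, had a median time difference of -1.60. Of 24 tested, 19 were called lower and none higher, while at 6 h 3 had risen and 3 had fallen and at 14 days 20 had fallen (13 without PFEIFFER and 11 without TOLEDO). RAD54L, a DNA translocase of homologous recombination, stood at 20.5, 22.2, 14.2, 31.0 and 15.1 CPM in DMSO at 6 h and 16.4, 34.3, 10.8, 28.4 and 10.9 CPM with vorinostat. RAD54L at 14 days stood at 31.1, 26.0, 39.7, 42.0 and 32.7 CPM in DMSOV and 13.2, 6.71, 2.92, 7.01 and 9.78 CPM with vorinostat. The treated libraries of 14 days held 2.92 to 13.2 CPM and did not overlap with DMSOV, whereas both groups overlapped at 6 h. The time difference was -2.04 (SE 0.35, adjusted p = 0.00477). The nuclease gene EXO1 had -2.55 (SE 0.49, adjusted p = 0.0106), BRCA1 -1.03 and BRCA2 -1.64. Without PFEIFFER 11 members were called, without TOLEDO 13 and without both 2. The solvent libraries of 14 days were a median 0.31 above those of 6 h for this list.

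DNMT3B, a de novo DNA methyltransferase, was 1 of the 93 genes that rose first and fell later (ENSG00000088305.17, GRCh38 chromosome 20, 32762385 to 32809356). Its levels were 3.33, 18.1, 3.17, 45.3 and 0.692 CPM in DMSO at 6 h and 15.9, 48.0, 12.2, 71.3 and 2.93 CPM with vorinostat. DNMT3B at 14 days stood at 7.74, 22.9, 13.8, 57.4 and 0.871 CPM in DMSOV and 3.01, 5.42, 1.83, 20.8 and 1.83 CPM with vorinostat. With vorinostat it was higher in 5 of 5 lines at 6 h and lower in 4 of 5 at 14 days, with WSUDLCL2, the line with the lowest level, as the exception. The groups overlapped at both times, and the lines differed far in level. In the solvent libraries DNMT3B was itself higher at 14 days than at 6 h in each line. Its effect was 1.501 at 6 h and -1.53 at 14 days, and the time difference -3.08 (SE 0.42, adjusted p = 0.00210) had the same sign in each line (-3.42, -3.40, -4.55, -2.10 and -0.83). Others of this order were CDCA2 (0.78, then -2.09), a chromatin phosphatase targeting gene, IQGAP3 (1.00, then -1.83), a scaffold gene of dividing cells, and DTL (0.71, then -2.14), a ubiquitin ligase adaptor of S phase. CTH, which makes cysteine from cystathionine, went from 1.40 to -1.31. Of 16 genes of the polycomb complex PRC2, the DNA methyltransferases and the TET enzymes, 5 had a lower and 1 a higher time difference. Over all genes the shares were 9.53% and 9.24%. The 5 became 1 without TOLEDO, 3 without WSUDLCL2, and 2 without PFEIFFER, without SUDHL4 or with DMSOP as control. EZH2, the methyltransferase of PRC2, had -0.92 (SE 0.24, adjusted p = 0.0247) and was not called without PFEIFFER, SUDHL4 or TOLEDO or with DMSOP as control.

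**Figure D2:**
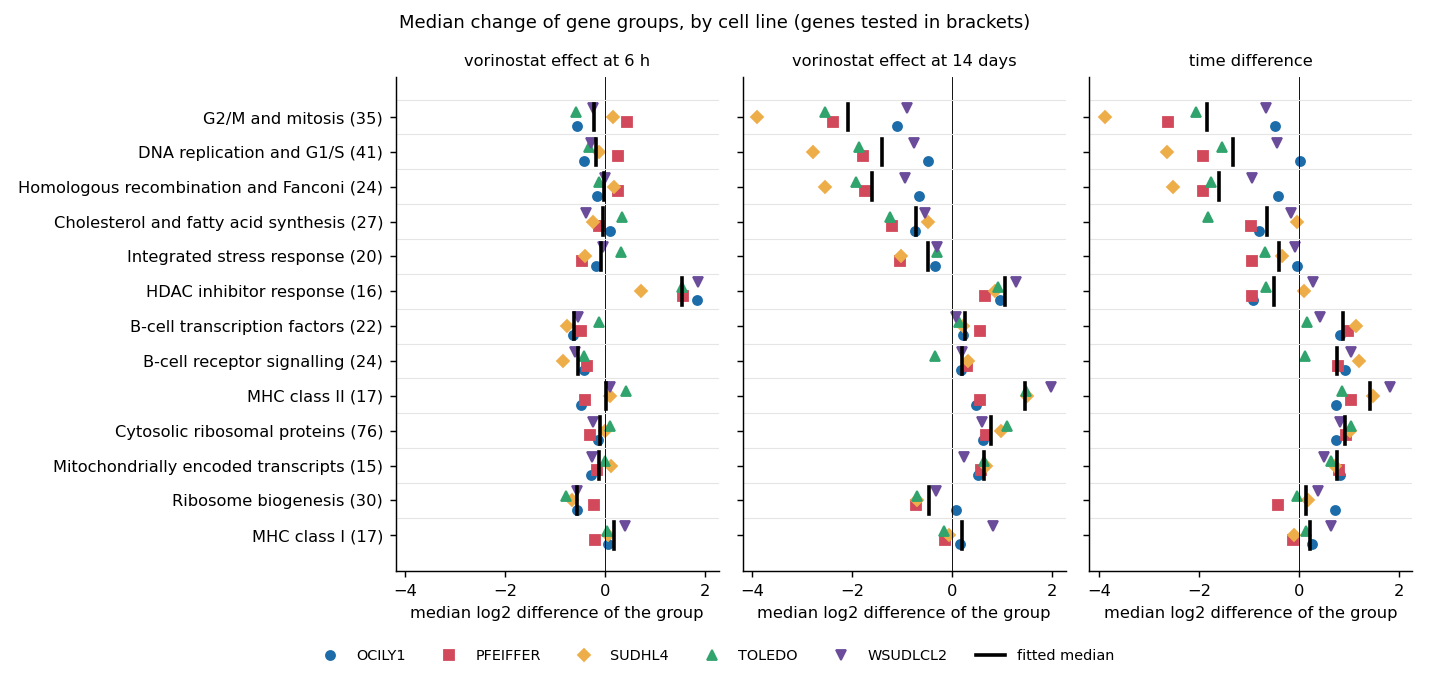
Median log2 change of 13 gene groups in each cell line (coloured symbols) at 6 h, at 14 days and as time difference, with the median of the fitted values over 5 lines as a black bar. G2/M medians lie between -0.58 and 0.43 at 6 h and between -3.90 and -0.90 at 14 days, while the ribosomal protein medians of the 5 lines lie close together at both times.

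Early induced genes followed 2 courses: some lost their rise by 14 days and others kept it. APAF1, which assembles the caspase-9 activating apoptosome (ENSG00000120868.12, GRCh38 chromosome 12, 98645141 to 98735433), stood at 35.2, 16.7, 40.9, 14.2 and 40.2 CPM in DMSO at 6 h and 143, 109, 118, 90.8 and 124 CPM with vorinostat. APAF1 at 14 days stood at 59.6, 30.1, 45.3, 29.7 and 65.9 CPM in DMSOV and 39.6, 36.7, 34.7, 12.4 and 34.2 CPM with vorinostat. At 6 h every treated library was above every solvent library, and at 14 days 4 of 5 treated libraries were below their own DMSOV library. The solvent libraries were themselves higher at 14 days than at 6 h in each line. The time difference of APAF1 was -2.67 (SE 0.27, adjusted p = 0.00110), and it stayed called under every alternative, the fit with no replicate block included. CASP9, the caspase it activates, had effects of 1.21 and 0.14 and a time difference of -1.07 (SE 0.23, adjusted p = 0.0102). Of 24 pro-apoptotic genes 3 had a lower and 1 a higher time difference, beside 9.53% and 9.24% of all genes. The median of that list was -0.070.

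CDKN2B and CDKN1A, which encode the cyclin-dependent kinase inhibitors p15 and p21, are known to block the entry into S phase. CDKN2B stood at 0.666, 0.558, 0.633, 0.610 and 0.415 CPM in DMSO at 6 h and 14.5, 4.09, 7.76, 7.35 and 6.94 CPM with vorinostat. CDKN2B at 14 days stood at 1.70, 1.67, 1.35, 0.481 and 1.02 CPM in DMSOV and 2.17, 1.14, 5.85, 2.33 and 3.36 CPM with vorinostat. All treated libraries were higher at 6 h with no overlap, and at 14 days 4 of 5 were higher with overlap. The time difference was -2.68 (SE 0.59, adjusted p = 0.0117). The solvent values of CDKN2B at 6 h lie near the counting floor, and that of SUDHL4 under it (0.633 against 0.913 CPM). The fit therefore gives the direction more firmly than the size. The files do not state whether counting used strand, and CDKN2B has an antisense partner whose reads could then be included. CDKN1A stood at 14.8, 9.21, 12.0, 10.1 and 8.02 CPM in DMSO at 6 h and 116, 26.0, 13.3, 101 and 49.0 CPM with vorinostat. CDKN1A at 14 days stood at 9.44, 4.72, 6.99, 19.6 and 4.65 CPM in DMSOV and 126, 8.71, 26.7, 244 and 108 CPM with vorinostat. It was above its own solvent library in 5 of 5 lines at each time, and the rise at 14 days was largest in OCILY1, TOLEDO and WSUDLCL2. Its effects were 2.22 and 3.05, both called, and its time difference of 0.81 (unadjusted 95% interval 0.061 to 1.57) was not called (adjusted p = 0.121), except without PFEIFFER.

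Among 16 genes known to respond to HDAC inhibitors, 13 had risen at 6 h and 5 at 14 days (3 without SUDHL4 or WSUDLCL2), and 3 had a lower time difference, 1 with line by time as block. Their median effects were 1.54 and 1.06. Over all genes 18.6% were called higher at 6 h and 9.98% at 14 days. The median time difference of these genes was -0.95 to -0.67 in OCILY1, PFEIFFER and TOLEDO, but 0.095 in SUDHL4 and 0.27 in WSUDLCL2. CTTNBP2NL, an actin-associated gene, rose at both times, by 4.57 and 2.58, with a time difference of -2.21 (SE 0.52, adjusted p = 0.0149) that was not called without PFEIFFER, with line by time as block or over all libraries. HEXIM1, an inhibitor of the elongation factor P-TEFb, rose by 1.36 and 0.99, with a time difference of -0.37 (interval -1.16 to 0.42). KDM5B, a histone H3 lysine 4 demethylase, had effects of 2.39 and 2.23, the second not called, with an interval of -1.85 to 1.09 for the difference. The linker histone gene H1F0 was at or near 0 in SUDHL4 and TOLEDO in all 4 groups, so its time difference of -4.77 describes 3 lines, and neither DESeq2 nor limma called it. Of 6 tested CDK inhibitor genes 2 had a lower time difference, beside 9.53% of all genes.

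Few HDAC genes had a called time difference. Of 11 tested, 1 had a higher and 1 a lower time difference, which is near the share of all genes. HDAC3, the class I catalytic subunit of the NCoR and SMRT complexes, stood at 69.5, 109.5, 55.4, 57.2 and 58.4 CPM in DMSO at 6 h and 101, 155, 129, 92.8 and 106 CPM with vorinostat. HDAC3 at 14 days stood at 79.7, 111, 70.6, 63.0 and 68.7 CPM in DMSOV and 72.5, 104, 87.0, 55.1 and 92.3 CPM with vorinostat. It was higher in 5 of 5 lines at 6 h and in 2 of 5 at 14 days, with overlap at both times. The difference of -0.70 (SE 0.18, adjusted p = 0.0226) was not called without OCILY1, PFEIFFER or TOLEDO or with DMSOP as control. HDAC7, a class II enzyme of lymphocytes, fell by 0.91 (an effect of -0.91) at 6 h, without overlap of the groups, and stood at 0.35 at 14 days, not called, with a time difference of 1.26 (SE 0.24, adjusted p = 0.00692). HDAC11, the class IV enzyme, rose at both times (2.12 and 2.83), and its time difference of 0.62 (interval -0.80 to 2.04) was not called. HDAC1, HDAC2 and HDAC6 had time differences of 0.42, -0.49 and 0.28, none called. HDAC2 was called under scaling by library totals. Of 12 histone acetyltransferase genes 3 had a higher and 2 a lower time difference, and without PFEIFFER, SUDHL4 or TOLEDO none was called higher, with 1 without OCILY1.

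Genes that fell at 6 h and were not called at 14 days included METAP1D, a mitochondrial methionine aminopeptidase (ENSG00000172878.12, GRCh38 chromosome 2, 171999583 to 172082430). METAP1D stood at 27.2, 21.5, 12.3, 12.4 and 17.1 CPM in DMSO at 6 h and 2.505, 3.10, 2.49, 0.989 and 1.70 CPM with vorinostat. METAP1D at 14 days stood at 15.9, 19.0, 5.64, 6.74 and 5.23 CPM in DMSOV and 14.5, 15.1, 7.68, 9.52 and 3.06 CPM with vorinostat. At 6 h all treated libraries lay below all solvent libraries, and at 14 days the groups overlapped, with 3 of 5 lines lower. The effect went from -3.06 to -0.048, a time difference of 3.01 (SE 0.35, adjusted p = 0.00165). The solvent libraries of METAP1D were themselves lower at 14 days than at 6 h in 5 of 5 lines (mean -0.90). UBTF, which opens ribosomal DNA for RNA polymerase I, stood at 334, 317, 331, 383 and 283 CPM in DMSO at 6 h and 62.1, 90.2, 65.9, 118 and 58.3 CPM with vorinostat. UBTF at 14 days stood at 194, 179.7, 197, 298 and 156 CPM in DMSOV and 180.1, 122, 126, 185 and 106 CPM with vorinostat. It fell without overlap at 6 h and was lower in 5 of 5 lines with overlap at 14 days, with effects of -2.10 and -0.51. Its time difference was 1.59 (SE 0.22, adjusted p = 0.00228), beside a mean change of -0.71 in the solvent libraries.

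MEPCE, the enzyme that caps 7SK RNA, fell at both times without overlap of the groups (-2.32 and -1.04), and its time difference was 1.27 (SE 0.20, adjusted p = 0.00356). DUS3L, which makes dihydrouridine in transfer RNA, fell by 2.86 at 6 h (an effect of -2.86) and by 1.14 at 14 days (an effect of -1.14), with a time difference of 1.71 (SE 0.30, adjusted p = 0.00536). For MEPCE and DUS3L too, the solvent libraries were lower at 14 days in 5 of 5 lines, by a mean log2 of -0.88 and -0.74. SRSF6, a splicing factor of the SR family, had effects of -1.67 and -0.33 and a time difference of 1.34 (SE 0.25, adjusted p = 0.00643). Of 28 splicing factors 16 had fallen at 6 h and 15 at 14 days, with 3 higher and 3 lower time differences (2 and 9 under library totals). The 15 late falls became 4 without PFEIFFER, 5 without SUDHL4, 3 without TOLEDO and 8 against DMSOP. Of 30 ribosome biogenesis genes 20 had fallen at 6 h and 13 at 14 days, and 3 had a higher and 1 a lower time difference. The 13 became 3 without PFEIFFER, SUDHL4 or TOLEDO, 6 without WSUDLCL2 and 1 against DMSOP. DKC1, which modifies ribosomal RNA, stood at -1.32 and -0.90, and its difference of 0.42 was not called. With all lines, these counts of time differences are near or under the shares of all genes.

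**Figure D3:**
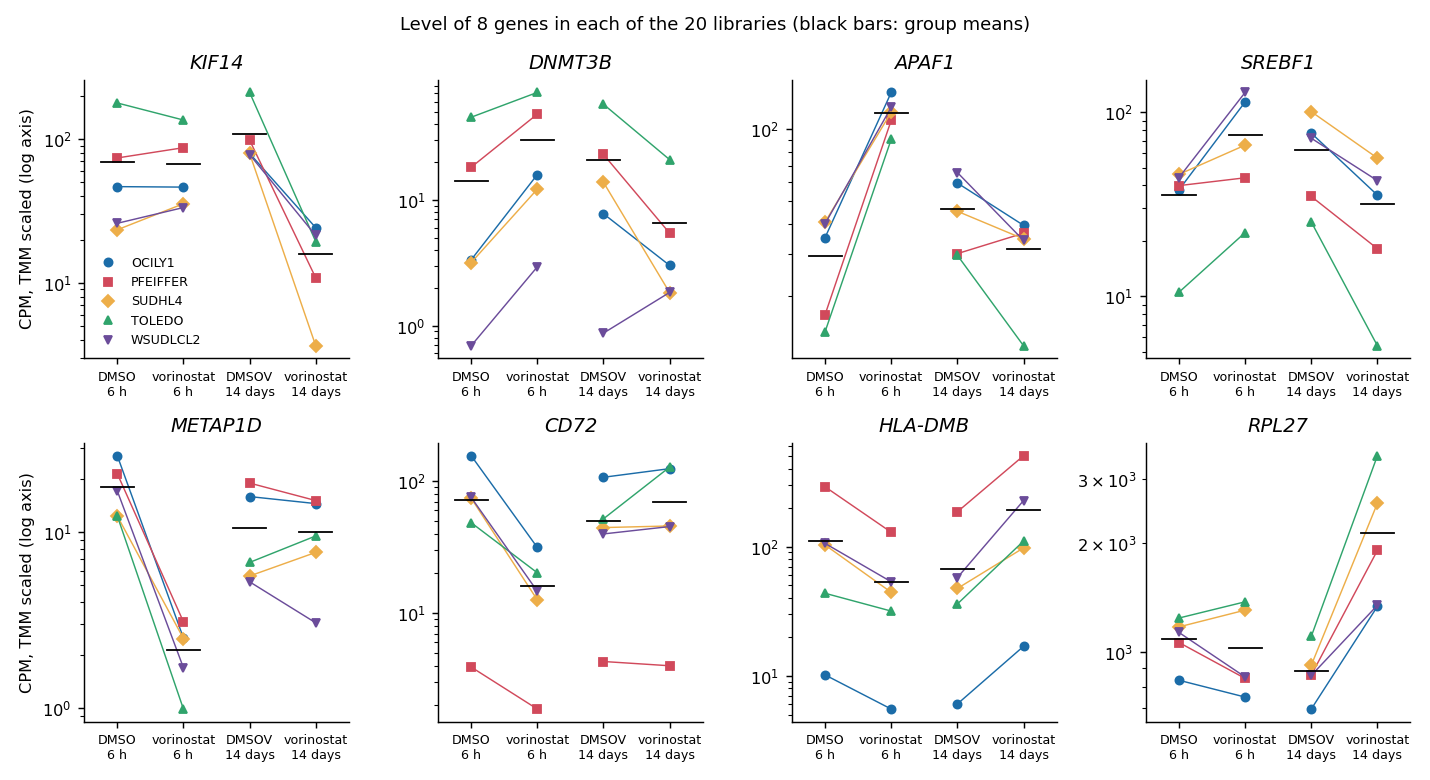
Levels of 8 genes in each of the 20 libraries as CPM on a log axis, with the libraries of a line joined within each time and black bars at the group means. KIF14 falls at 14 days in 5 of 5 lines, APAF1 rises at 6 h in 5 of 5, METAP1D and CD72 drop at 6 h, and HLA-DMB and RPL27 rise at 14 days.

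Many B-cell genes fell at 6 h and were no longer called lower at 14 days. Of 22 B-cell transcription factor genes 11 had fallen at 6 h (7 without SUDHL4) and 0 were called at 14 days (edgeR, with 1 without OCILY1, PFEIFFER or WSUDLCL2), and 13 had a higher and 1 a lower time difference (median 0.89). POU2F2, which encodes the octamer factor OCT2, had effects of -0.84 and 0.71, the second not called, and a time difference of 1.57 (SE 0.20, adjusted p = 0.00175). PAX5, EBF1 and IKZF3, which set B-cell identity, had time differences of 0.88, 1.03 and 1.21. BCL6, the germinal centre repressor, had 0.31 (interval -0.32 to 0.94), not called. MYBL1, a germinal centre factor, had -1.53 (SE 0.30, adjusted p = 0.00865), which was not called with line by time as block or over all libraries. Leaving out any 1 line left 6 to 8 higher calls (OCILY1 7, PFEIFFER 6, SUDHL4 6, TOLEDO 8 and WSUDLCL2 8), and library totals left 7. TOLEDO took little part: its median time difference for the list was 0.16, against 0.42 to 1.14 in the other lines. At 6 h its median effect was -0.12, against -0.78 to -0.48 in the others.

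Genes of B-cell receptor signalling had 12 of 24 members fallen at 6 h, 2 risen at 14 days (0 without PFEIFFER, SUDHL4 or WSUDLCL2), and 10 higher and 0 lower time differences. Their median time difference was 0.12 in TOLEDO and 0.77 to 1.20 in the other lines. CD72, an inhibitory co-receptor (ENSG00000137101.11, GRCh38 chromosome 9, 35609533 to 35646810), stood at 155, 3.91, 74.1, 48.4 and 75.1 CPM in DMSO at 6 h and 31.4, 1.88, 12.6, 20.2 and 14.7 CPM with vorinostat. CD72 at 14 days stood at 107, 4.30, 44.4, 51.8 and 39.8 CPM in DMSOV and 124, 4.00, 45.7, 128 and 45.2 CPM with vorinostat. It was lower in 5 of 5 lines at 6 h and higher in 4 of 5 at 14 days, with overlap at each time, and PFEIFFER had the lowest level throughout. The effect went from -2.001 to 0.35, a time difference of 2.37 (SE 0.24, adjusted p = 0.00127). CD79B, a signalling chain of the receptor, stood at 869, 1129, 593, 906 and 449 CPM in DMSO at 6 h and 323, 430.2, 159.8, 458 and 249 CPM with vorinostat. CD79B at 14 days stood at 535, 984, 246, 637 and 223 CPM in DMSOV and 494, 1221, 509, 2113 and 424 CPM with vorinostat. It was lower in 5 of 5 lines at 6 h and above DMSOV in 4 of 5 at 14 days, most of all in TOLEDO. Its effects were -1.31 and 0.78, and its time difference was 2.09 (SE 0.25, adjusted p = 0.00165). The kinase genes BLK (1.68) and SYK (1.04), the adaptor BLNK (1.42) and MS4A1 (1.75), which encodes CD20, were also called, whereas LYN (-0.49) and BTK (0.46) were not.

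The solvent libraries also moved for these genes. The 7 B-lineage markers were a median 0.52 lower (-0.52) in DMSOV at 14 days than in DMSO at 6 h. Their median time difference was 0.066 in TOLEDO and 1.08 to 1.97 in the other lines. Their summed level was 2730 to 6965 CPM in DMSO at 6 h, 1887 to 3299 CPM with vorinostat at 6 h, 2432 to 4605 CPM in DMSOV and 3887 to 9742 CPM with vorinostat at 14 days. With DMSOP as the 14 day control, 8 of the 22 transcription factor genes and 10 receptor signalling genes had a higher time difference. TNFRSF17, the gene of the survival receptor BCMA of plasma cells, went from -2.52 at 6 h to 0.0055 at 14 days, with a time difference of 2.47 (SE 0.34, adjusted p = 0.00221). Of 12 plasma cell regulators and receptors 3 had a higher and 1 a lower time difference, beside 9.24% and 9.53% of all genes.

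FCER2, which encodes the low-affinity IgE receptor CD23 (ENSG00000104921.13, GRCh38 chromosome 19, 7688758 to 7702146), passed from a fall to a rise. FCER2 stood at 0.267, 0.558, 6.02, 7.17 and 1.25 CPM in DMSO at 6 h and 0.167, 0.221, 2.64, 1.13 and 0.617 CPM with vorinostat. FCER2 at 14 days stood at 0.155, 0.139, 1.13, 2.73 and 0.145 CPM in DMSOV and 11.0, 0.999, 65.5, 12.2 and 18.3 CPM with vorinostat. It was below its solvent library in 5 of 5 lines at 6 h and above it in 5 of 5 at 14 days. At 6 h both values of OCILY1 (0.267 and 0.167 CPM) and the treated value of PFEIFFER (0.221 CPM) lie under the counting floor. The early fall is therefore uncertain in these lines, and its fitted effect was -1.58. Several DMSOV values lie under the floor too. The effect of 4.56 at 14 days and the time difference of 6.05 (SE 0.62, adjusted p = 0.00110) thus give the direction more firmly than the size. FCMR, the IgM Fc receptor, showed the same order (-1.07, then 3.10; time difference 4.48 (SE 0.46, adjusted p = 0.00135)) and was highest in TOLEDO with 201 CPM at 14 days. Some FCMR values in PFEIFFER, OCILY1 and WSUDLCL2 lie under the floor too. Among 18 genes of B-cell activation, memory and homing, 5 had a higher and 1 a lower time difference, and BANK1, a B-cell scaffold, had 1.80 (SE 0.34, adjusted p = 0.00730). TRAF1, an adaptor of tumour necrosis factor receptors, had effects of -0.49, not called, and 2.02, and a time difference of 2.47 (SE 0.21, adjusted p = 6.47e-04). Of 17 NF-kappaB factors and targets 4 had a higher time difference, 2 without PFEIFFER and 7 without OCILY1. Over all genes 9.24% were called higher and 9.53% lower.

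MHC class II genes, which present peptides to CD4 T cells, rose late and nearly as a whole. Of 17 tested, 15 had a higher time difference (9.24% of all genes were called higher), with a median of 1.41. At 6 h 1 had risen and 2 had fallen, and at 14 days 13 had risen and 1 had fallen. CIITA, the co-activator that switches the family on (ENSG00000179583.16, GRCh38 chromosome 16, 10866222 to 10943021), stood at 31.7, 769.7, 44.4, 223 and 88.4 CPM in DMSO at 6 h and 32.7, 368, 63.5, 337 and 115 CPM with vorinostat. CIITA at 14 days stood at 13.8, 644, 53.9, 259.9 and 101 CPM in DMSOV and 183, 899, 207, 751 and 348 CPM with vorinostat. At 14 days it was above DMSOV in 5 of 5 lines, with overlap since the lines span a wide range. For CIITA the time difference was 1.76 (SE 0.35, adjusted p = 0.00961). HLA-DMB, a chain of the peptide loading molecule, stood at 10.1, 290.3, 103, 43.5 and 106 CPM in DMSO at 6 h and 5.51, 129, 44.2, 31.6 and 53.4 CPM with vorinostat. HLA-DMB at 14 days stood at 6.04, 186, 47.4, 35.9 and 57.5 CPM in DMSOV and 16.9, 506, 97.6, 110.3 and 227 CPM with vorinostat. Each line was lower at 6 h and higher at 14 days, and the 5 time differences lay close together (2.28, 2.61, 2.25, 2.06 and 2.96). The fitted time difference was 2.47 (SE 0.20, adjusted p = 6.47e-04), from effects of -0.95 and 1.52. In the solvent libraries HLA-DMB was itself lower at 14 days than at 6 h in each line.

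The classical class II chains differed between the lines. HLA-DRA stood at 1.60, 5295, 1226, 1156 and 1221 CPM in DMSO at 6 h and 0.835, 3994, 1228, 1422 and 1204 CPM with vorinostat. HLA-DRA at 14 days stood at 1.70, 4128, 793, 1070 and 825 CPM in DMSOV and 19.9, 6391, 2873, 3411 and 3265 CPM with vorinostat. OCILY1 had almost none in the solvent and reached 19.9 CPM with vorinostat at 14 days, far below the other lines. The time difference of HLA-DRA was 1.79 (SE 0.31, adjusted p = 0.00642) and that of CD74, the invariant chain, 1.00 (SE 0.14, adjusted p = 0.00230). HLA-DPB1 had 1.78 (SE 0.21, adjusted p = 0.00165) and stayed at or under 0.464 CPM in OCILY1. RFX5, a subunit of the factor that binds the X box of these promoters, had 0.65, called, after falls at both times that were smaller at 14 days, whereas RFXAP (-0.27) and RFXANK (0.55) were not. The counts of near-identical chains, HLA-DQA1 with HLA-DQA2 and HLA-DRB1 with HLA-DRB5, could share reads and are uncertain. Leaving out any 1 line left 12 to 14 of the 17 called. At 14 days alone the count of rises was 7 without SUDHL4 and 8 without TOLEDO. Of 17 MHC class I genes 0 had a called time difference at either sign (median 0.23), while 3 had risen at 14 days alone, or 1 without OCILY1, SUDHL4, TOLEDO or WSUDLCL2. The 2 lists were not tested against each other.

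Class II promoters are built around an X box and a CCAAT box, called Y, that binds NF-Y. CCAAT on either strand was found in 12 of 15 class II promoters with a RefSeq entry (80.0%), against 34.6% of all promoters and 37.3% of those of tested genes. For all genes with a higher time difference it was 34.8%. The share was 61.5% of 13 MHC class I promoters and 66.7% of 21 promoters of lipid synthesis genes, so the letters are not particular to class II. The invariant chain, a pair of loading chains and 1 classical chain are shown from the reference genome, with the CCAAT letters in capitals (ATTGG on the opposite strand).
CD74 (chr5:150412941-150413060, minus strand): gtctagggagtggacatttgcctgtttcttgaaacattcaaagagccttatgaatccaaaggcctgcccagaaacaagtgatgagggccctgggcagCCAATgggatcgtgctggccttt
HLA-DOA (chr6:33009622-33009741, minus strand): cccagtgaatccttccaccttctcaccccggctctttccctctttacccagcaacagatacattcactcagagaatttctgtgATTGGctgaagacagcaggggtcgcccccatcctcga
HLA-DMA (chr6:32953128-32953247, minus strand): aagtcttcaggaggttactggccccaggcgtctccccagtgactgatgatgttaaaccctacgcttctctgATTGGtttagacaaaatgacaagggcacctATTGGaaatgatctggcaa
HLA-DRB1 (chr6:32589849-32589998, minus strand): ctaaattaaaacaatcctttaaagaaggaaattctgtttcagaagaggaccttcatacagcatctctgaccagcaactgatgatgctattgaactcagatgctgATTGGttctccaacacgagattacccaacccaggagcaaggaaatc
The last CCAAT box begins 53 bases before the start of CD74, 67 before that of HLA-DOA, 49 before that of HLA-DMA and 46 before that of HLA-DRB1. Their time differences were 1.00, 1.22, 1.72 and 1.41.

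Transcripts of cytosolic ribosomal proteins rose at 14 days in a narrow range. Of 76 tested, 71 had a higher time difference and 0 a lower one, with a median of 0.91 and a range of -0.074 to 1.42, and 73 had the same sign in 5 of 5 lines. At 6 h 0 of 76 were called, with a median effect of -0.12, and at 14 days 67 had risen, with a median of 0.79. The 5 that were not called were RPL17, RPL22, RPLP0, RPS10 and RPS26, with -0.074 for RPS10 the only negative value. RPL27 (ENSG00000131469.11, GRCh38 chromosome 17, 42998273 to 43002959) stood at 833, 1060, 1171, 1239 and 1130 CPM in DMSO at 6 h and 748, 843, 1303, 1374 and 851 CPM with vorinostat. RPL27 at 14 days stood at 693, 861, 917, 1102 and 859 CPM in DMSOV and 1334, 1907, 2575, 3487 and 1344 CPM with vorinostat. The groups overlapped at 6 h, and at 14 days each treated library was above every DMSOV library. For RPL27 the time difference was 1.30 (SE 0.17, adjusted p = 0.00177). The line medians of the group were 0.74 to 1.05 and the solvent libraries changed by a median of -0.27.

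The ribosomal rise held its direction under library totals, with 61 called and a median of 0.71. Leaving out 1 line left 58 to 68 of 76 called and leaving out both TOLEDO and PFEIFFER 28, with a median of 0.87. At 14 days alone the rises numbered 43 without SUDHL4 and 46 against DMSOP. Many ribosomal protein genes have processed pseudogenes with near-identical sequence, so single values are uncertain where the counting split reads. Ribosome biogenesis factors had a median time difference of 0.14, and of -0.065 under library totals.

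Mitochondrially encoded transcripts rose in the same libraries. Their share of all counts was 6.17 to 10.9% in DMSO and 5.43 to 11.8% with vorinostat at 6 h, 6.76 to 12.0% in DMSOV and 10.5 to 17.5% with vorinostat at 14 days. The share was higher than in DMSOV in 5 of 5 lines, least in WSUDLCL2 (12.5% against 12.0%). The difference of differences was 4.68 ± 2.07 percentage points (SD, n = 5), positive in 5 of 5 lines, with an exact two-sided sign-flip permutation p of 0.0625, the smallest that 5 lines can give. Of 15 tested mitochondrial transcripts 11 had a higher time difference and 0 a lower one, with a median of 0.76. At 6 h 0 were called, and at 14 days 9 had risen (5 without OCILY1, 3 without PFEIFFER and 2 without SUDHL4). MT-CO1, a subunit of cytochrome c oxidase, had 1.04 (SE 0.16, adjusted p = 0.00284) and the ribosomal RNA MT-RNR1 1.06 (SE 0.24, adjusted p = 0.0131). Genes for respiratory chain subunits encoded in the nucleus had 4 higher and 1 lower time difference of 41 (median 0.10, and -0.098 under library totals), and 0 of either sign without WSUDLCL2. The part of this share in the other results was not tested. Without both TOLEDO and PFEIFFER 5 of the 15 transcripts were called.

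**Figure D4:**
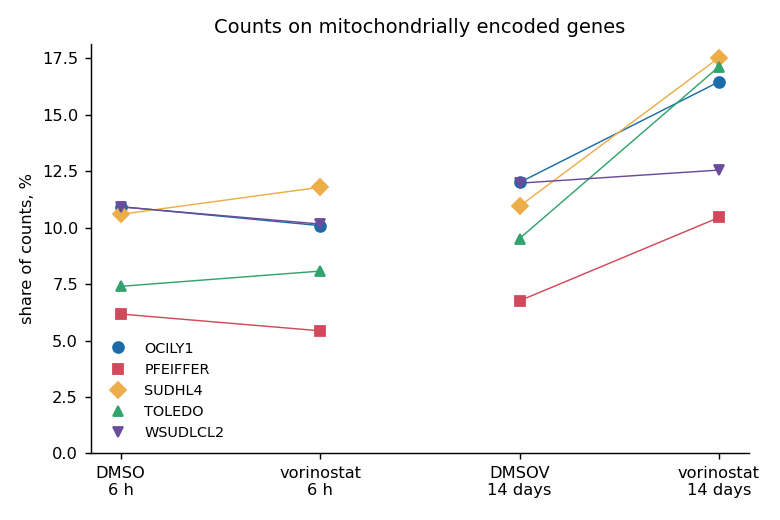
Share of counts on mitochondrially encoded genes in percent, for each of the 20 libraries, with the libraries of a line joined within each time. The treated libraries of 14 days lie between 10.5 and 17.5%, above the DMSOV library of the same line in 5 of 5 lines, while treated and solvent libraries overlap at 6 h.

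Lipid synthesis genes were lower late. Of 27 genes of cholesterol and fatty acid synthesis 10 had a lower time difference and 0 a higher one (median -0.64). At 14 days 13 had fallen and 0 risen, against 7 fallen and 4 risen at 6 h. The median time difference was -1.83 in TOLEDO, -0.96 in PFEIFFER and -0.81 in OCILY1, but only -0.16 in WSUDLCL2 and -0.049 in SUDHL4. SREBF1, a transcription factor of lipid synthesis genes (ENSG00000072310.15, GRCh38 chromosome 17, 17810399 to 17837002), stood at 37.9, 39.9, 45.9, 10.5 and 44.1 CPM in DMSO at 6 h and 114, 44.0, 66.2, 22.2 and 128 CPM with vorinostat. SREBF1 at 14 days stood at 76.9, 34.9, 101, 25.3 and 72.2 CPM in DMSOV and 35.4, 18.1, 56.3, 5.39 and 42.5 CPM with vorinostat. It was above the solvent in 5 of 5 lines at 6 h and below it in 5 of 5 at 14 days, with overlap at both times. Its effects were 0.98 and -1.14, and its time difference was -2.11 (SE 0.31, adjusted p = 0.00279). Its targets SCD and FADS1, a pair of fatty acid desaturases, had -2.01 (SE 0.38, adjusted p = 0.00856) and -1.71 (SE 0.21, adjusted p = 0.00165). Without PFEIFFER 5 genes of the list were called and without TOLEDO 6.

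Lists of amino acid supply and of protein folding held some lower time differences, beside 9.53% of all genes called lower and 9.24% called higher. Under library totals 2198 of 13822 genes were called lower. No list was tested against these shares. Of 20 integrated stress response genes 6 had a lower time difference, and without PFEIFFER 2. SLC7A11, the cystine importer, stood at 5.60, 23.6, 13.9, 1.22 and 6.22 CPM in DMSO at 6 h and 11.7, 30.1, 19.6, 2.83 and 8.02 CPM with vorinostat. SLC7A11 at 14 days stood at 11.6, 54.3, 22.8, 4.65 and 9.87 CPM in DMSOV and 1.67, 11.3, 5.12, 1.26 and 4.89 CPM with vorinostat. Each line was higher at 6 h and lower at 14 days, and the time difference was -2.66 (SE 0.37, adjusted p = 0.00221). The solvent libraries of SLC7A11 were themselves higher at 14 days than at 6 h in each line. SLC7A5, the leucine transporter, had -2.23 (SE 0.38, adjusted p = 0.00636). ATF4, the transcription factor of this response, had 0.12, not called. Of 20 heat shock genes 4 had a lower time difference, 10 under library totals, 0 without PFEIFFER and 2 without SUDHL4 or TOLEDO. Their 5 falls at 14 days became 0 without PFEIFFER, without SUDHL4 or with DMSOP as control, and 1 without TOLEDO. HSPA1A, the inducible HSP70, had effects of 2.005, called, and -0.43, not called, and a time difference that lost its call without PFEIFFER. Of 19 glycolysis genes 3 were lower, 8 under library totals, with hexokinase HK1 at -1.22 (SE 0.20, adjusted p = 0.00418). Of 27 lysosome and autophagy genes 4 were higher and 3 lower. TFEB, the master regulator of lysosome genes, had 1.80 (SE 0.30, adjusted p = 0.00424), and NPC1, the lysosomal cholesterol exporter, -1.18 (SE 0.19, adjusted p = 0.00356).

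Some survival and growth regulators fell at 6 h and were not called at 14 days. BCL2, the anti-apoptotic gene, stood at 547, 102, 236, 529.6 and 269 CPM in DMSO at 6 h and 218, 64.7, 75.7, 436 and 116 CPM with vorinostat. BCL2 at 14 days stood at 591, 104, 217, 593 and 278 CPM in DMSOV and 529, 187, 242, 628 and 228 CPM with vorinostat. It was below the solvent in 5 of 5 lines at 6 h and in 2 of 5 at 14 days, with overlap. Its time difference was 1.15 (SE 0.23, adjusted p = 0.00881), and XIAP, a caspase inhibitor, had 0.91 (SE 0.19, adjusted p = 0.00991), which made 2 of 10 anti-apoptotic genes higher and 0 lower. MYC, the growth regulator, had effects of -1.08 and -0.064, the second not called, and a time difference of 1.00 (SE 0.27, adjusted p = 0.0252) that was not called without PFEIFFER, SUDHL4 or TOLEDO or with line by time as block. Of 23 p53 targets 4 were higher and 1 lower, with 2 higher without OCILY1, PFEIFFER, SUDHL4 or TOLEDO. Over all genes 9.24% were called higher and 9.53% lower. The cyclin genes CCND2 and CCND3 had 0.36 (interval -1.58 to 2.27) and -0.37 (interval -0.89 to 0.14), neither called.

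TERT and MVP moved further in the direction they had taken at 6 h. TERT, the catalytic subunit of telomerase (ENSG00000164362.17, GRCh38 chromosome 5, 1253147 to 1295069), stood at 12.5, 12.3, 1.27, 30.8 and 11.1 CPM in DMSO at 6 h and 4.68, 4.20, 0.732, 6.08 and 3.39 CPM with vorinostat. TERT at 14 days stood at 8.67, 13.1, 3.38, 31.1 and 15.7 CPM in DMSOV and 1.504, 0.143, 0, 2.16 and 0.611 CPM with vorinostat. It was lower in 5 of 5 lines at each time, and at 14 days the treated libraries did not overlap with DMSOV and 3 of 5 held under 1 CPM. Its effects were -1.69 and -4.09 and its time difference -2.30 (SE 0.55, adjusted p = 0.0162), which was not called without PFEIFFER. The treated values of PFEIFFER, SUDHL4 and WSUDLCL2 at 14 days lie under the counting floor, so these fits give the direction more firmly than the size. Of 12 telomerase and shelterin genes 4 were lower, 0 without PFEIFFER and 2 without OCILY1, SUDHL4 or WSUDLCL2. MVP, the major vault protein, stood at 7.46, 27.8, 17.7, 2.59 and 19.9 CPM in DMSO at 6 h and 22.0, 49.1, 26.4, 11.3 and 48.9 CPM with vorinostat. MVP at 14 days stood at 4.95, 27.1, 5.64, 3.69 and 8.71 CPM in DMSOV and 32.6, 146, 105, 35.4 and 91.4 CPM with vorinostat. It was higher in 5 of 5 lines at each time, without overlap at 14 days, and its time difference was 1.94 (SE 0.34, adjusted p = 0.00571). Of 6 tested genes of drug efflux 2 were higher, and the transporter gene ABCB1 had effects of 1.75, called, and 3.40, not called, and a time difference of 0.38, not called. Over all genes 9.24% were called higher and 9.53% lower.

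The time difference was called for 18.8% of all genes (9.24% higher and 9.53% lower), and the counts of all lists are read against these shares. Interferon-stimulated genes had 1 higher and 1 lower of 23, JAK-STAT genes 4 and 2 of 15, AP-1 and immediate early genes 2 and 1 of 17, P-TEFb and 7SK genes 2 and 1 of 13, histone demethylases 0 and 3 of 17, the MYC and MAX network 3 and 1 of 10, metallothioneins 0 and 0 of 6 and neuronal genes 0 and 1 of 9. JAK-STAT and the MYC and MAX network lie above the share of all genes, but without SUDHL4 they had 1 and 1 called each. Of 10 myeloid markers 3 are in the table (ITGAM, CSF1R and CD33) and none passed the filter. Their summed level was up to 3.22 CPM in the 6 h libraries and up to 1.67 CPM in DMSOV, and 1.08 to 37.0 CPM with vorinostat at 14 days, highest in WSUDLCL2. MS4A7, a membrane gene of B cells and macrophages, led the rises among genes of 1 sign in 5 lines whose mean log2 CPM reached 2, with 3.57 (SE 0.47, adjusted p = 0.00195). Its treated libraries of 14 days held 0.501 CPM in OCILY1 and 34.5 to 92.1 CPM in the other lines. Whether the myeloid transcripts and the B-cell and class II genes rose in the same cells was not tested.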

How the data were processed

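RNA-seq gene counts were deposited by the authors as a table of raw read counts per gene and as a table of log2 values. Per the submitters' processing notes the tools were STAR and edgeR and the build hg38. For versions, annotation and strand setting, the sources used here give nothing. The deposited log2 values equalled log2 CPM after TMM scaling to within 4.99e-06 and entered only the limma alternative. Counts were fitted here with edgeR 4.0.16 (R 4.3.3): filterByExpr (minimum count 10, total 15), TMM scaling, and the quasi-likelihood test with Benjamini-Hochberg adjustment over all 13822 genes, called at 0.05. The time difference was fitted over 20 libraries with terms for line, line by time and line by drug, which left 4 residual degrees of freedom. The effects at 6 h and 14 days were fitted on 10 libraries each with the line as block, since both libraries of a pair are of the same cell line. Every adjusted p in the text is from this edgeR test. An effect has no pseudocount beyond edgeR's own, and intervals are unadjusted. The step was tested on simulated counts in which a gene had the same time difference in every line. That test does not cover a time difference that varies between lines. Symbols and coordinates are from GENCODE 29 (17859 of 18011 identifiers matched), and promoters are from RefSeq, GRCh38.p14.

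The members and gene lists were chosen with earlier results of these data known. Genes were named by this rule: the 12 largest rises and falls of the time difference whose mean log2 CPM reached 2 and whose sign was the same in each line, up to 3 called members per list and direction, the 5 largest of each order among genes called in opposite directions, and a fixed set of 21 genes. Other list members with values (such as MCM2, DKC1, PAX5, BLK, RFX5 and ABCB1) and the genes whose promoters are shown were added after their values were seen. Alternatives were other blocks, controls, scalings, filters and tools (DESeq2 1.42.0, limma 3.58.1) and leaving out each line. Leaving out TOLEDO and PFEIFFER together was chosen after seeing the data, because their DMSO columns at 6 h are named DMSOP in the log2 table. A second sample labelled as SUDHL4 with vorinostat at 14 days was not analysed here.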

Additional observations from a re-analysis of the deposited data

Results flagged for a closer look

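In a group of 5 lines, 1 line stood apart from the other 4 in the time difference of 12 of the genes and in 1 list median, of 203 values examined, and chance flags about 1 in 20. PFEIFFER was highest for IL16 (7.29), JARID2 (0.28), MXD1 (0.030) and EGR2 (4.75), and lowest for CD72 (0.84), where the other lines had larger rises. SUDHL4 was highest for AFF4 (-0.22), DUSP6 (4.00) and STAT3 (-0.14), and lowest for KDM1B (-2.09) and CCND2 (-1.94). TOLEDO was lowest for HDAC1 (-0.23), OCILY1 was highest for CIITA (3.66), and WSUDLCL2 was lowest for the median of the MYC and MAX network (-0.41).

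The vorinostat effect differed between 14 days and 6 h, by the test of the difference itself, for 2594 genes. Of these, 136 were also called in opposite directions at the 2 times.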

How the results depend on the processing

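The 2594 called time differences became 2221 with line by time as block, 3605 over all libraries, 1891 with DMSOP as control, 2351 with DESeq2 and 2488 with limma, and 537 with a fold limit of 1.5. Pairing by line mattered most: with no replicate block 29 genes were called (1607 at an unadjusted p under 0.05), with 516 at 6 h and 0 at 14 days (2272 at an unadjusted p under 0.05, edgeR), and 13 of 162 named genes kept their side of the threshold. Of those 13 only APAF1 and AUNIP kept a call, and the others were called in neither fit. Leaving out 1 line gave 1373 (without PFEIFFER) to 1980 time differences, 1653 without TOLEDO, and 564 without TOLEDO and PFEIFFER. At 6 h leaving out 1 line gave 3781 to 4812 genes. At 14 days it gave 1175 (without SUDHL4) to 1976, with 1305 without PFEIFFER, 1209 without TOLEDO and 1593 without WSUDLCL2, and DMSOP as control gave 1625. Library totals gave 847 higher and 2198 lower time differences, 3104 and 1996 at 6 h, and 1116 and 1805 at 14 days. The mitochondrial difference stayed between 4.11 and 5.51 percentage points without any 1 line and was 5.95 with DMSOP. None of the 162 named genes reversed its time difference after a call, but under library totals the median of all genes turned from 0.049 to -0.15, that of histone acetyltransferases from 0.18 to -0.021 and that of P-TEFb and 7SK genes from 0.15 to -0.035. The stricter filter gave 1310 higher and 1239 lower. The cause of these changes was not tested. Fewer lines leave fewer residual degrees of freedom, and the 3 libraries under 4 mega counts limit genes near the floor.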
